A study of Homo sapiens with 38 samples.

Results

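The interleukin-1 family and inflammasome genes were followed in A549 cells, a human line derived from alveolar epithelium, exposed to fumed amorphous silica nanoparticles (NPs). The 10 genes IL1A, IL1B, IL1RN, IL18, IL33, IL1R1, NLRP3, CASP1, CASP4 and PYCARD were chosen by name, and their probes were found through the transcript accession in the scanner files. They took 13 of the 34127 probes of the array and 10 of the 19745 genes with a probe. Gene expression had been measured on 38 single-dye arrays, 1 array per sample, and every sample, control cells included, was an A549 culture in serum-free medium. At 24 h, 4 samples received 0.1 μg/cm2 of NPs, 4 received 1.0 μg/cm2 and both groups shared 4 control samples. Another 4 samples received 1.5 μg/cm2 and had 4 controls of their own. Finally, 3 samples received 3.0 μg/cm2, 3 received 6.0 μg/cm2 and both shared 3 controls, and the same layout of 3, 3 and 3 samples was repeated at 72 h.

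Levels are log2 values of the processed signal relative to the 75th percentile of that array, so that 0 is the level of a probe at the 75th percentile. Levels of different probes cannot be set against each other, and each probe was compared only with itself. A gene is said to have risen or fallen when limma gave a Benjamini-Hochberg adjusted p below 0.05 over all probes tested, and it is called when the fold change was also at least 1.5. The arrays had 54.36% to 73.55% of their probes well above background, no spot was saturated and the 75th percentile lay between 740.4 and 3202 intensity units. The number of arrays limits the precision. For the exposed samples at 72 h one label field gives 72 h and another gives 24 h, and the first was used. For 72 h the controls shared a scan day with the 24 h arrays, while the exposed cells had another, so exposure and scan day cannot be told apart in the comparisons with control at 72 h. The same holds for the differences in response between 72 h and 24 h. The 2 doses at 72 h were scanned together. The first replicate at 3.0 μg/cm2 and 72 h stood apart from the other replicates of its group, with 73.34% of its probes above background against 64.95% and 64.45%.

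The identity of the line was checked on markers. The 5 epithelial markers EPCAM, KRT8, KRT18, KRT19 and CDH1 were well above background on all 38 arrays, and so were 2 of the 6 alveolar type II markers, SFTPC and ABCA3, while LAMP3, SFTPA1, SFTPB and NKX2-1 were so on 33, 11, 2 and 1 arrays. Of 7 leukocyte and macrophage markers 6 had a probe, and PTPRC, CD14 and CD68 were above background on all 38 arrays, while ITGAM, MARCO and CSF1R were so on 37, 5 and 3 arrays. Of the 3 endothelial markers CDH5 was above background on 37 arrays, VWF on 27 and PECAM1 on 3. Of the 3 fibroblast markers COL1A1 was above background on all 38 arrays, DCN on 1 and COL1A2 on none, so that transcripts of some markers of other cell types were measured throughout.

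Interleukin-1 alpha, interleukin-1 beta, interleukin-18 and interleukin-33 are cytokines of one family that act through related receptors, and IL1RN encodes the antagonist that occupies the interleukin-1 receptor without signalling. Interleukin-1 beta and interleukin-18 are made as precursors and are cut by caspase-1, which is activated on the inflammasome, a complex of a sensor such as NLRP3 with the adaptor ASC, encoded by PYCARD. Caspase-4 senses bacterial lipopolysaccharide inside the cell. In macrophages, silica particles are a known trigger of NLRP3. Transcript levels do not show cleavage or release, and in bulk RNA fewer cells that express a gene cannot be told apart from less RNA per cell.

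Of the 10 genes, IL18, CASP4, PYCARD and IL1R1 were well above background on all 38 arrays, IL1R1 with both of its probes. The brighter probe of IL1RN was above background on 37 arrays, and its other probe on 4. IL33 was above background on 16 arrays, IL1B on 9, CASP1 on 6 and IL1A on 1. The brighter NLRP3 probe was above background on 4 arrays and its other probe on none. A probe was tested only where all arrays of 1 or more of the groups compared had it above background, which left 5 of the 10 genes in the comparisons with control at 24 h and 6 at 72 h. At 72 h the sixth gene, IL1B, passed only through the controls, in which it was high, and its calls depend on that. The other 5 were above background on every array of each group at 72 h.

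**Figure D1:**
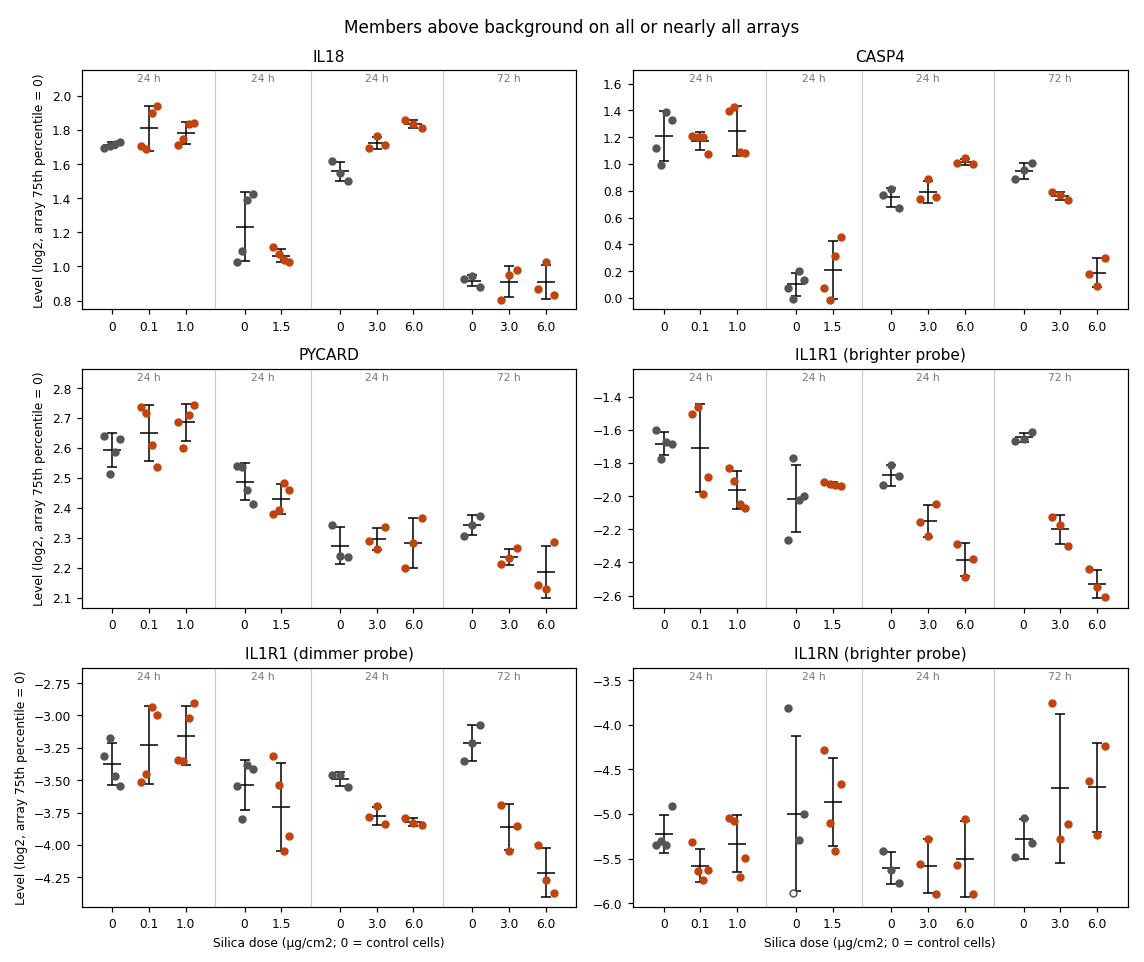
Level of the members that were above background on all or nearly all of the 38 arrays (log2, the 75th percentile of the array at 0) against silica dose in μg/cm2, with grey points for control cells and orange points for exposed cells, 1 point per array, and bars for the mean ± SD. Filled points were well above background, and at 72 h the 3 CASP4 values at 6.0 μg/cm2 (0.09 to 0.30) lay below those of the control cells (0.89 to 1.01).

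At 0.1, 1.0 and 1.5 μg/cm2, no member was called. At 0.1 μg/cm2 limma called 0 of 5 tested members, 1 of them reached an unadjusted p below 0.05, the unpaired test named in the methods called 0, and 0% of all 21699 probes tested were called. At 1.0 μg/cm2 the counts were again 0 by both tests and 1 at the unadjusted threshold, with 0.00948% of all probes called. At 1.5 μg/cm2 they were 0 by both tests and 0 at the unadjusted threshold, with 2.48% of all probes called. Over all probes tested 2049 of 21699, 3708 of 21091 and 3510 of 21028 reached the unadjusted threshold at the 3 doses. The median log2 difference of the tested members was −0.03, 0.04 and 0.09 at the 3 doses, beside 0.01, −0.01 and 0.01 over all probes tested. At 1.5 μg/cm2 IL1RN was tested through the exposed cells, with 3 of 4 control arrays above background. The 4 members above background in both groups there had a median of 0.01.

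With 3.0 μg/cm2 for 24 h, 0 of 5 tested members were called by limma and 0 by the unpaired test, beside 2.88% of all probes. An unadjusted p below 0.05 was reached by 6360 of all 22096 probes and by 2 members. Of these, IL1R1 passed the adjusted p alone, which 12.2% of all probes did. With 6.0 μg/cm2 for 24 h the number called was again 0 by both tests, with 9.32% of all probes called. Here IL18 and CASP4 rose and IL1R1 fell, each by less than 1.5-fold, so that 3 of 5 passed the adjusted p beside 34.3% of all probes. The median difference of the 5 genes was 0.02 and 0.10 at these doses, beside −0.01 and −0.03 over all probes.

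At 72 h 0 of the 5 members above background in both groups were called at 3.0 μg/cm2 by limma or by the unpaired test, where 5.91% of all probes were called. IL1R1 and CASP4, the 2 with an unadjusted p below 0.05, passed the adjusted p as lower, as 26.9% of all probes did in either direction. At 6.0 μg/cm2 IL1R1 and CASP4, 2 of the 5, were called, both lower, where 17.1% of all probes were called, and the same 2 passed the adjusted p alone beside 45.8% of all probes. The median difference of the 5 genes was −0.11 at 3.0 and −0.16 at 6.0 μg/cm2, beside 0.03 and 0.04 over all probes. IL1B also met both thresholds at each dose, as lower, which makes 1 and 3 of 6, but it had been let into the test by its controls alone. The 2 doses share their controls, so their counts are not independent.

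**Figure D2:**
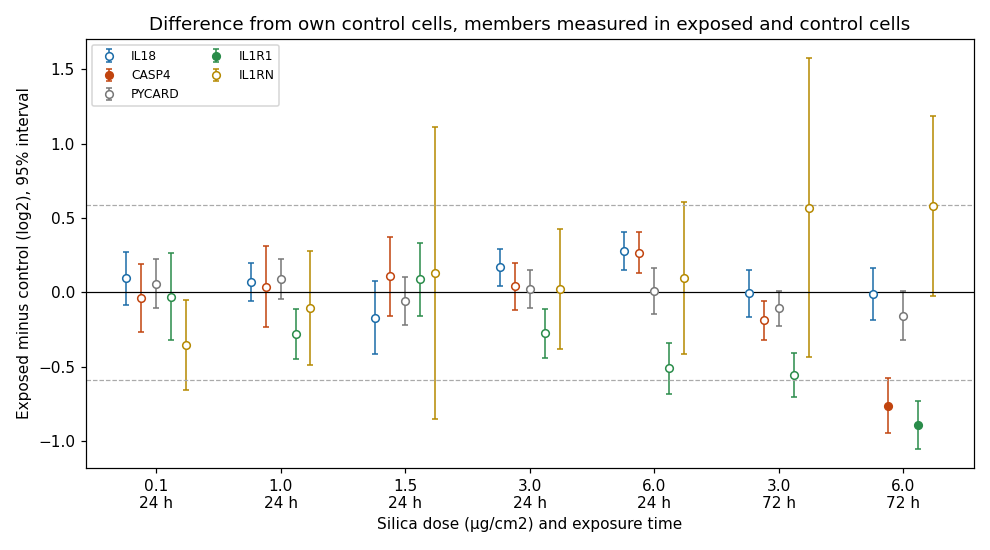
Difference between exposed and control cells (log2) at each silica dose (μg/cm2) and exposure time for the 5 members tested in every comparison shown, with bars for the 95% interval, dashed lines at a 1.5-fold change and filled points for called differences. IL1RN at 1.5 μg/cm2 was tested through the exposed cells, with 3 of 4 control arrays above background. The called differences are those of IL1R1 (−0.89) and CASP4 (−0.76) at 6.0 μg/cm2 and 72 h.

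Among the ligands, IL18 was the only one above background on every array. It is spotted 10 times on each array, and the SD between its spots had a median of 0.05 on the log2 scale. At 24 h its levels were 1.62, 1.55 and 1.50 in the control cells, 1.69, 1.77 and 1.71 at 3.0 μg/cm2 and 1.86, 1.84 and 1.81 at 6.0 μg/cm2. The 3 groups did not overlap and followed the dose. The difference from control was 0.17 (SE 0.05, adjusted p = 0.0931) at 3.0 μg/cm2 and 0.28 (SE 0.05, adjusted p = 0.00955) at 6.0 μg/cm2, where normexp background correction gave 0.27 with an adjusted p of 0.0719. Between the 2 doses it was 0.11 (adjusted p = 0.2).

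At 72 h the IL18 levels were 0.92, 0.95 and 0.88 in the control cells, 0.81, 0.95 and 0.98 at 3.0 μg/cm2 and 0.87, 1.03 and 0.83 at 6.0 μg/cm2. All 3 groups overlapped, and the difference at 6.0 μg/cm2 was −0.01 with a 95% interval from −0.18 to 0.17. At the lower doses the levels also overlapped between groups. They ran from 1.69 to 1.73 in the controls, from 1.69 to 1.94 at 0.1 μg/cm2 and from 1.71 to 1.84 at 1.0 μg/cm2. At 1.5 μg/cm2 the exposed cells had 1.11, 1.08, 1.04 and 1.03 and their controls 1.03, 1.09, 1.39 and 1.42. Replicates 1 and 2 of both groups were scanned on 1 day and replicates 3 and 4 on another, and the IL18 difference was 0.035 for the former and −0.37 for the latter, with a pooled value of −0.17 (adjusted p = 0.483).

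IL1B, the classical pyrogenic cytokine, was near background. Its 10 spots per array had a median SD of 0.40 between them. In the 72 h controls its levels were −6.20, −5.92 and −5.73, with 5, 7 and 9 of the 10 spots above background. The 3.0 μg/cm2 arrays had −6.34, −7.08 and −6.79, with 7, 1 and 0 spots above background. The 6.0 μg/cm2 arrays had −7.51, −7.79 and −7.68, with 0 of 10 spots above background on each array. The 3 groups did not overlap and fell with the dose.

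At 6.0 μg/cm2 and 72 h the exposed cells gave only a bound, and the IL1B transcript was at least 1.48-fold lower, which is short of the 1.5-fold threshold (adjusted p = 0.000198 for the signals as measured). The bound was computed from the mean of the control arrays against the lowest signal that was well above background on each exposed array or the probe's own signal where that was higher. With normexp the measured difference was −0.41, and with a rule of over 5 of 10 spots IL1B was not tested, because 1 control array had exactly 5 of 10. At 3.0 μg/cm2, with 1 of 3 exposed arrays above background, the measured difference was −0.79 (SE 0.21, adjusted p = 0.0413). It did not pass with normexp (−0.22, adjusted p = 0.0654) or without a filter on dim probes (adjusted p = 0.104), and it was lost on leaving out any 1 of the 3 control arrays (adjusted p 0.0602, 0.124 and 0.104) or exposed replicate 2 or 3 (0.099 and 0.0982), it was kept without exposed replicate 1 (0.0168), and with the replicate block its adjusted p was 0.101.

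At 24 h IL1B was not tested. In the controls of 3.0 and 6.0 μg/cm2 it had −8.16, −8.02 and −8.21, at 3.0 μg/cm2 −8.38, −8.30 and −8.42 and at 6.0 μg/cm2 −8.28, −8.16 and −7.64, with no spot above background. At 0.1 μg/cm2 the levels were −7.34, −7.68, −7.21 and −6.94 beside −6.64, −6.97, −6.69 and −6.36 in the controls, where 5, 0, 3 and 10 of 10 spots were above background. These groups overlapped at 1 value. At 1.0 μg/cm2 they ran from −7.24 to −6.62, and at 1.5 μg/cm2 from −7.34 to −6.82 beside −7.93 to −6.91 in the controls.

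The summed level of the 6 leukocyte and macrophage markers also fell with dose at 72 h, but its members diverged. The sum lay between 1.55 and 1.63 in the control cells, between 1.14 and 1.22 at 3.0 μg/cm2 and between 0.69 and 0.83 at 6.0 μg/cm2. At 24 h it lay between −0.74 and −0.68 in the controls, between −0.08 and −0.03 at 3.0 μg/cm2 and between 0.64 and 0.77 at 6.0 μg/cm2. CD14 had mean levels of 1.32, 0.74 and −0.07 in these groups at 72 h and of −2.07, −2.63 and −2.76 at 24 h. CD68 had −1.24, −1.03 and −0.64 at 72 h and −1.81, −0.52 and 0.48 at 24 h, and so ran in the opposite direction to CD14 at both times. The part of these genes, or of the cells they mark, in the IL1B result was not tested.

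IL1RN did not pass the test in any comparison. With its brighter probe it had −5.48, −5.04 and −5.32 in the 72 h controls, −3.75, −5.28 and −5.11 at 3.0 μg/cm2 and −4.63, −5.23 and −4.24 at 6.0 μg/cm2. The exposed groups overlapped the controls, and the high first value at 3.0 μg/cm2 came from the array that stood apart. The difference at 6.0 μg/cm2 was 0.58 (95% interval −0.02 to 1.18, adjusted p = 0.102) and at 3.0 μg/cm2 0.57 (adjusted p = 0.334). At 24 h the brighter probe lay between −5.90 and −3.82 over all 24 h arrays, and its differences ran from −0.35 at 0.1 μg/cm2 to 0.13 at 1.5 μg/cm2. The dimmer probe was below background except on 2 arrays at 1.5 μg/cm2, 1 at 6.0 μg/cm2 and 24 h and 1 at 3.0 μg/cm2 and 72 h. The 2 arrays at 1.5 μg/cm2 had −3.92 and −3.95 beside −7.62 and −8.80 on the other arrays of that group.

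IL33, an alarmin stored in the nucleus, and IL1A, which acts both in the nucleus and at the membrane, were not tested against control at any dose. IL33 had −6.05, −6.31 and −6.09 in the 72 h controls, with 2 of 3 arrays above background. At 3.0 μg/cm2 it had −5.06, −6.78 and −7.10 and at 6.0 μg/cm2 −5.50, −6.66 and −6.80, with 1 of 3 arrays above background in each group. The exposed groups thus overlapped the controls. IL1A was above background only on the first array at 3.0 μg/cm2 and 72 h, at −6.81 with 6 of 10 spots above background, and its other 37 levels ran from −9.85 to −7.01.

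**Figure D3:**
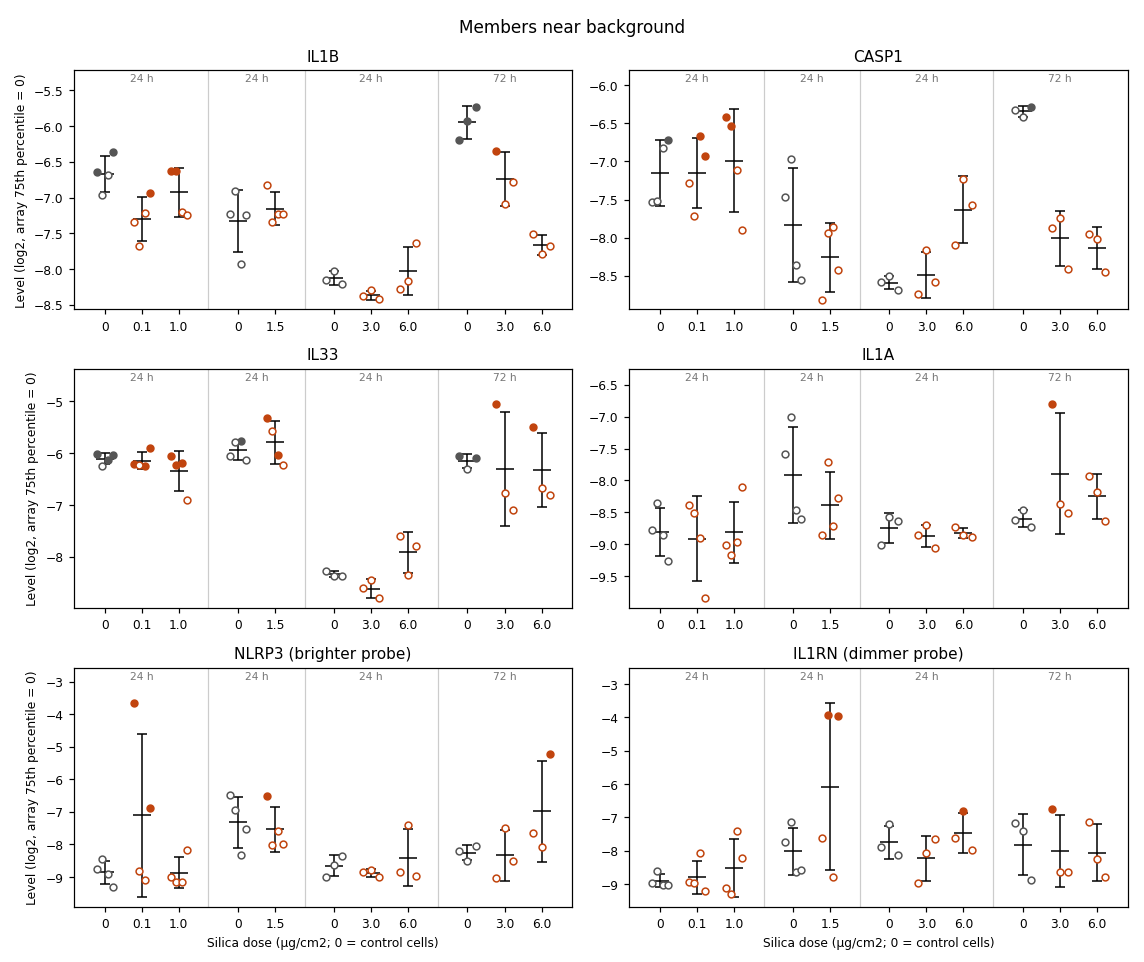
Level of the members near background (log2, the 75th percentile of the array at 0) against silica dose in μg/cm2, with grey points for control cells, orange points for exposed cells, 1 point per array, and bars for the mean ± SD. Open points were not well above background, as were all 3 IL1B values at 6.0 μg/cm2 and 72 h (−7.79 to −7.51), which lay below the 3 control values (−6.20 to −5.73).

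The receptor IL1R1, which carries the interleukin-1 signal into the cell, fell at both higher doses and at both times. With its brighter probe it had −1.93, −1.81 and −1.88 in the 24 h controls, −2.16, −2.24 and −2.05 at 3.0 μg/cm2 and −2.29, −2.49 and −2.38 at 6.0 μg/cm2. At 72 h it had −1.67, −1.66 and −1.61 in the controls, −2.13, −2.17 and −2.30 at 3.0 μg/cm2 and −2.44, −2.55 and −2.61 at 6.0 μg/cm2. At each time the 3 groups of the brighter probe did not overlap, and its levels fell with the dose. With the dimmer probe both doses lay below the controls, but 3.0 and 6.0 μg/cm2 overlapped at both times.

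The IL1R1 differences were −0.27 (SE 0.07, adjusted p = 0.0478) and −0.51 (SE 0.07, adjusted p = 0.00256) at 24 h. At 72 h they were −0.55 (SE 0.06, adjusted p = 0.00328) and −0.89 (SE 0.07, adjusted p = 0.000167), and the latter is a 1.849-fold lower level. The value at 3.0 μg/cm2 and 24 h did not pass on leaving out any 1 of its 6 arrays (adjusted p 0.052 to 0.151) or with the replicate block (0.095). With normexp the value at 6.0 μg/cm2 and 24 h was −0.31 (adjusted p = 0.128). The dimmer probe gave −0.29 and −0.33 at 24 h and −0.65 at 3.0 μg/cm2 and 72 h, with an adjusted p below 0.05 each time, and by this probe the last change was also called. It was 2.001-fold lower at 6.0 μg/cm2 and 72 h (adjusted p = 0.000949).

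At the lower doses the IL1R1 probes did not run together. At 1.0 μg/cm2 the brighter probe had −1.83, −1.91, −2.05 and −2.07, all below the controls at −1.60, −1.77, −1.67 and −1.68, with a difference of −0.28 (adjusted p = 0.147). The dimmer probe differed there by 0.22 (adjusted p = 0.392). At 0.1 and 1.5 μg/cm2 the brighter probe differed from control by −0.03 and 0.09.

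CASP4 rose at 24 h and fell at 72 h. Its levels at 24 h were 0.77, 0.81 and 0.67 in the controls, 0.74, 0.89 and 0.75 at 3.0 μg/cm2 and 1.01, 1.04 and 1.00 at 6.0 μg/cm2. At 72 h they were 0.89, 0.95 and 1.01 in the controls, 0.79, 0.77 and 0.73 at 3.0 μg/cm2 and 0.18, 0.09 and 0.30 at 6.0 μg/cm2. The highest dose thus lay above the controls at 24 h and below them at 72 h, without overlap at either time.

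The CASP4 difference at 6.0 μg/cm2 was 0.27 (SE 0.06, adjusted p = 0.014) at 24 h, which did not pass with normexp (0.20, adjusted p = 0.137) or without exposed replicate 2 (0.25, adjusted p = 0.0558). At 72 h it was −0.76 (SE 0.08, adjusted p = 0.000512), a 1.694-fold lower level. It kept its call in all 17 alternatives, none of which could separate exposure from scan day. At 3.0 μg/cm2 and 72 h it was −0.19 (SE 0.05, adjusted p = 0.0467), which did not pass on leaving out any 1 of the 6 arrays (adjusted p 0.0532 to 0.147) or with the replicate block (0.133). At the lower doses CASP4 overlapped its controls, with levels of 0.99 to 1.39 in the controls of 0.1 and 1.0 μg/cm2, 1.08 to 1.21 at 0.1 μg/cm2 and 1.08 to 1.43 at 1.0 μg/cm2. At 1.5 μg/cm2 it lay between −0.01 and 0.45 beside −0.01 and 0.20 in the controls.

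PYCARD, the inflammasome adaptor, passed the test in no comparison. Its levels at 72 h were 2.31, 2.34 and 2.37 in the controls, 2.21, 2.23 and 2.26 at 3.0 μg/cm2 and 2.14, 2.13 and 2.28 at 6.0 μg/cm2. Both exposed groups lay below the controls without overlap, by −0.11 (adjusted p = 0.146) and −0.16 (95% interval −0.32 to 0.01, adjusted p = 0.104). At 24 h its differences ran from −0.06 at 1.5 μg/cm2 to 0.09 at 1.0 μg/cm2.

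CASP1 and NLRP3 were not tested against control. CASP1 had −6.32, −6.42 and −6.28 in the 72 h controls, with 1 of 3 arrays above background, −7.87, −7.74 and −8.41 at 3.0 μg/cm2 and −7.95, −8.02 and −8.46 at 6.0 μg/cm2. The exposed groups lay below the controls without overlap and below background on all 6 arrays, and with 1 control array above background no fold is given. The brighter NLRP3 probe was above background on 2 arrays at 0.1 μg/cm2, at −3.65 and −6.89, on 1 array at 1.5 μg/cm2, at −6.53, and on 1 array at 6.0 μg/cm2 and 72 h, at −5.21. The other probe of NLRP3 was above background on none of the 4, and no level of the sensor can be given for any group.

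The 2 doses were next compared with each other. At 24 h 0 members were called between 6.0 and 3.0 μg/cm2 by limma, beside 1.64% of all probes. An unadjusted p below 0.05 was reached by 2 members and by 5960 of all 22141 probes. At 72 h, where both doses were scanned on 1 day, 0 of 5 tested members were called beside 4.85% of all probes, while 2 passed the adjusted p alone beside 16.8% of all probes. CASP4 was lower at 6.0 than at 3.0 μg/cm2 by −0.57 (SE 0.07, adjusted p = 0.00593), a fold of 1.487, and passed 1.5-fold without replicate 3 of either dose. With its brighter probe IL1R1 was lower by −0.33 (SE 0.07, adjusted p = 0.0327), and without 5 of the 6 arrays in turn its adjusted p was 0.0597 to 0.116. Its dimmer probe did not pass, at −0.35 (adjusted p = 0.124) at 72 h and −0.05 (adjusted p = 0.636) at 24 h.

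The control cells themselves differed between 72 h and 24 h. Of the 5 members above background at both times 1 was called, IL18, which was lower, beside 20.1% of all probes, and IL1R1 and CASP4 also passed the adjusted p, as 59.2% of all probes did. IL18 differed by −0.64 (SE 0.06, adjusted p = 0.000287). IL1B, which was above background only at 72 h and was tested through that group, was at least 1.78-fold higher there (adjusted p = 8.22e-05 for the signals as measured). With normexp the measured difference of IL1B was 0.51, which is below the 1.5-fold threshold. IL1R1 differed by 0.23 (adjusted p = 0.0129) and CASP4 by 0.20 (adjusted p = 0.0319). IL33 and CASP1 were below background in all 3 control samples at 24 h and above it on 2 and 1 of 3 arrays at 72 h.

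Whether the response differed between the times was tested directly, as the difference from control at 72 h minus that at 24 h. The comparison with control at 72 h enters this difference, so it cannot be told apart from scan day either. For 3.0 μg/cm2 limma called 0 members, beside 5.33% of all probes. An unadjusted p below 0.05 was reached by 3 members and by 8015 of all 22621 probes. For 6.0 μg/cm2, CASP4 was called, as lower, beside 17.2% of all probes, and CASP4, IL1R1 and IL18 passed the adjusted p beside 37.9% of all probes. CASP4 differed by −1.03 (SE 0.09, adjusted p = 3.08e-05). IL1B met both thresholds too (adjusted p = 0.000266, and 0.125 with normexp), but only its 72 h controls were above background, so that no size of the difference in response can be given. IL1R1 differed by −0.38 (adjusted p = 0.00969) with its brighter probe. With its dimmer one it differed by −0.67 (adjusted p = 0.00325), a fold of 1.59, and by this probe the difference was called. IL18 differed by −0.29 (adjusted p = 0.0218), which did not pass with normexp (0.0626) or without control replicate 3 at 24 h (0.0527) or control replicate 2 at 72 h (0.0551).

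The promoters of IL1B, CASP4 and IL1R1, the 3 genes that passed as lower at 72 h, and of PYCARD, which was not called, are printed so that their sequences can be compared. Each is the 250 bases before the transcription start in RefSeq, build GRCh38.p14, 5′ to 3′ on the strand of the gene. For 8 of the 10 members the table had a promoter, and IL18 and CASP1 are named only. IL1R1 has 4 annotated starts, of which the most upstream is shown. Capitals mark matches, on either strand, to 1 of 7 motifs searched, with N for any base. They were TATAAA for the TATA box, GGGCGG for the GC box, TGANTCA for AP-1, TGACGTCA for the cyclic AMP response element, TTGCNNAA for C/EBP, TTCNNNGAA for STAT factors, and the NF-kB motif. Matches to these letters did not overlap in the windows shown.

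IL1B, minus strand, chr2:112836780-112837029: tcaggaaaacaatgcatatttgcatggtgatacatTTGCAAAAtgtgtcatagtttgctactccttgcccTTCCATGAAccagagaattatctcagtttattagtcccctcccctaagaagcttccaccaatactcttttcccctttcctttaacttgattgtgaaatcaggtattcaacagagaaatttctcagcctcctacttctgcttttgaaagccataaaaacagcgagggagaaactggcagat

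CASP4, minus strand, chr11:104968575-104968824: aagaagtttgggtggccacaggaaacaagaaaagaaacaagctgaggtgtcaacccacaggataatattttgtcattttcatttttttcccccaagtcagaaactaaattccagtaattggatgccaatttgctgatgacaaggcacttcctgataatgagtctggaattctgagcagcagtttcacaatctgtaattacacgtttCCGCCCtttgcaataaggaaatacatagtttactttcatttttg

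IL1R1, plus strand, chr2:102104354-102104603: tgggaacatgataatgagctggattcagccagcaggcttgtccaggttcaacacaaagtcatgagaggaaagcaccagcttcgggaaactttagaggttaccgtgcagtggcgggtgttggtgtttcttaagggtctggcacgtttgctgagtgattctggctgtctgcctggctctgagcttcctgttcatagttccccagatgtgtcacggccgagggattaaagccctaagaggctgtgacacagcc

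PYCARD, minus strand, chr16:31202761-31203010: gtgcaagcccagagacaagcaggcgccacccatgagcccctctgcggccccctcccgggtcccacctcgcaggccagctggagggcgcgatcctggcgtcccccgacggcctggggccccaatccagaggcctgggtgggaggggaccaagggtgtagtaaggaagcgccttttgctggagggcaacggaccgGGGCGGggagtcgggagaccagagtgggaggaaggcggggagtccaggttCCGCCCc

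In the IL1B window TTGCAAAA begins 215 bases before the start and matches the C/EBP letters, which 9.05% of all 35116 promoter windows held, and TTCCATGAA begins 180 bases before it and matches the STAT letters, which 6.57% held. The CASP4 window holds 1 GC box, on the reverse strand 44 bases before the start, and the PYCARD window 2, at 57 and 7 bases. GC boxes were in 42.6% of all windows. The IL1R1 window shown held none of the 7 motifs. Its other 3 windows did hold matches, namely GC boxes in the 2 that start at 102141541 and 102142496 and TATA boxes and a STAT match in the one that starts at 102142056. No motif was present in a window of each of the 3 genes.

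The other genes of the pathway, a list of 42 by role, had probes for 40, of which 19 were above background on all 38 arrays and 5 on none. Of the genes tested, each by its brightest probe, 3 of 25 were called at 3.0 μg/cm2 and 3 of 26 at 6.0 μg/cm2 at 24 h, all higher, beside 2.88% and 9.32% of all probes in either direction and 1.49% and 3.95% higher. At 72 h 2 were called higher and 1 lower of 26 at 3.0 μg/cm2, and 3 higher and 4 lower of 25 at 6.0 μg/cm2, beside 5.91% and 17.1% of all probes. These counts include genes let into the test by 1 group only. They were TXNIP at 24 h and IL1F10 at 3.0 μg/cm2 and 72 h, through the exposed cells. IL1R2 and IL18R1 at 6.0 μg/cm2 and 72 h were let in through the controls. By its brightest probe no gene of the list was called at 0.1, 1.0 or 1.5 μg/cm2, while a second probe of TAB2 was called higher at 1.5 μg/cm2, by 0.83 (adjusted p = 0.0203). At these doses 2 of 26, 5 of 25 and 6 of 23 reached an unadjusted p below 0.05. Over all probes 2049 of 21699, 3708 of 21091 and 3510 of 21028 did so. The median log2 difference of the list was 0.0043 and −0.0028 at 24 h and −0.03 and −0.05 at 72 h for 3.0 and 6.0 μg/cm2.

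Among the receptors and decoys, IL1R2, a decoy that binds interleukin-1 without signalling, fell at both higher doses at 72 h. It had −4.61, −4.33 and −4.59 in the 72 h controls, −5.29, −5.36 and −5.32 at 3.0 μg/cm2 and −6.19, −7.26 and −6.75 at 6.0 μg/cm2, where no array was above background. The difference at 3.0 μg/cm2 was −0.81 (SE 0.09, adjusted p = 0.00311) and with normexp −0.42. At 6.0 μg/cm2, where it was tested through the controls, it was at least 3.59-fold lower (adjusted p = 0.00087), and the direct comparison of 6.0 with 3.0 μg/cm2 gave at least 2.04-fold lower (adjusted p = 0.0177). With normexp the measured differences were −0.69 and −0.26, and the second did not pass (adjusted p = 0.13). It also did not pass without replicate 1, 2 or 3 at 3.0 μg/cm2 or replicate 3 at 6.0 μg/cm2 (adjusted p 0.0512 to 0.0676).

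IL1R2 and IL1R1 lie in 1 cluster of receptor genes on chromosome 2, followed by IL1RL2, IL1RL1, IL18R1 and IL18RAP. At 6.0 μg/cm2 and 72 h IL18R1, the ligand-binding chain of the interleukin-18 receptor, fell by 0.62 on the log2 scale (adjusted p = 0.0104), and its partner chain IL18RAP rose by 0.61 (adjusted p = 0.0211). Both calls were lost on leaving out single arrays, and with normexp IL18R1 differed by −0.30. For IL18R1 they were control replicates 1 and 2 and exposed replicate 3, with −0.58, −0.52 and −0.55. For IL18RAP they were control replicates 1 and 3 and exposed replicates 1 and 3, with adjusted p of 0.0515 to 0.0645, and normexp turned its sign (−0.063).

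Among the kinases, IRAK2, which relays the signal from the receptor complex, rose at both higher doses and both times. Its levels at 24 h were −0.22, −0.30 and −0.30 in the controls, 0.79, 0.81 and 0.79 at 3.0 μg/cm2 and 1.40, 1.28 and 1.34 at 6.0 μg/cm2. At 72 h they were −1.94, −1.85 and −2.12 in the controls, −1.09, −1.22 and −1.17 at 3.0 μg/cm2 and −0.69, −0.68 and −0.85 at 6.0 μg/cm2. The groups rose with the dose without overlap at each time, while the level in the controls was lower at 72 h than at 24 h by −1.70 (adjusted p = 5e-05).

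The IRAK2 differences were 1.07 (SE 0.05, adjusted p = 0.000221) and 1.61 (SE 0.06, adjusted p = 2.69e-05) at 24 h and 0.81 (SE 0.08, adjusted p = 0.00273) and 1.23 (SE 0.09, adjusted p = 0.000164) at 72 h. Each IRAK2 difference kept its call in every alternative run, though none could separate exposure from scan day at 72 h. At 6.0 μg/cm2 and 72 h its relatives IRAK1 and IRAK4 were called in opposite directions, at 0.62 (adjusted p = 0.00564) and −0.65 (adjusted p = 0.00185). The IRAK1 call was lost without control replicate 3 (0.55) or exposed replicate 2 (0.56), and the IRAK4 call without exposed replicate 3 (−0.57). A second, dimmer IRAK1 probe was not called, at 0.43 (adjusted p = 0.0348), a fold of 1.349.

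CASP5, an inflammatory caspase that lies beside CASP4 on chromosome 11, had −1.55, −1.48 and −1.64 in the 24 h controls and −1.20, −1.17 and −1.22 at 6.0 μg/cm2. At 72 h it had −1.34, −1.32 and −1.21 in the controls, −1.54, −1.56 and −1.61 at 3.0 μg/cm2 and −2.02, −2.20 and −1.98 at 6.0 μg/cm2. Like CASP4 it was higher at 24 h, by 0.36 (adjusted p = 0.00512), and lower at 72 h, by −0.78 (SE 0.08, adjusted p = 0.000618), and the 2 responses differed by −1.14 (SE 0.10, adjusted p = 2.74e-05). The 2 caspases are close relatives, and cross-hybridisation between their probes was not tested.

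TXNIP, which binds NLRP3, had −7.98, −6.64 and −6.15 in the 24 h controls, where 1 of 3 arrays was above background, −4.88, −5.12 and −5.36 at 3.0 μg/cm2 and −3.72, −3.81 and −4.22 at 6.0 μg/cm2. The groups did not overlap, and the gene was tested through the exposed cells. Its difference at 6.0 μg/cm2 was 3.00 (SE 0.44, adjusted p = 0.00336) and ran from 0.998 to 3.39 over the alternatives. The difference at 3.0 μg/cm2 was 1.80 (adjusted p = 0.0466), and the call was lost without control replicate 2 or any 1 exposed replicate (adjusted p 0.0992 to 0.138). With the replicate block it was 1.80 (adjusted p = 0.0935), with normexp 0.56, below the 1.5-fold threshold, and in the series matrix 0.51 (adjusted p = 0.186). At 72 h TXNIP did not pass, at −0.22 for 6.0 μg/cm2 (adjusted p = 0.384), and the responses at 6.0 μg/cm2 differed by −3.23 (SE 0.54, adjusted p = 0.00125). This size rests on the 24 h controls near background and ran from −3.61 to −1.45 over the alternatives.

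NEK7, a kinase that joins the NLRP3 complex, was called higher at 24 h, by 0.62 (adjusted p = 0.0114) at 3.0 μg/cm2 and 0.59 (adjusted p = 0.0124) at 6.0 μg/cm2. For 3.0 μg/cm2 the fold went below 1.5 without control replicate 1 or 2 or exposed replicate 3, and at 6.0 μg/cm2 without control replicate 1 or 2 or exposed replicate 1 or 2, with values of 0.52 to 0.58. Neither difference passed with normexp (0.29, adjusted p = 0.0876, and 0.54, adjusted p = 0.189) or with the methods' unpaired test (adjusted p 0.0578 and 0.0557), and the series matrix gave 0.24 (adjusted p = 0.334) and 0.15 (adjusted p = 0.438). Among the ligands IL1F10 was called higher at 3.0 μg/cm2 and 72 h, by 0.91 (adjusted p = 0.0177), which was lost with normexp (0.17, adjusted p = 0.17), without control replicate 1 or 3 or exposed replicate 2 (adjusted p 0.053 to 0.0623) and turned to −0.0717 in the values of the series matrix.

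**Figure D4:**
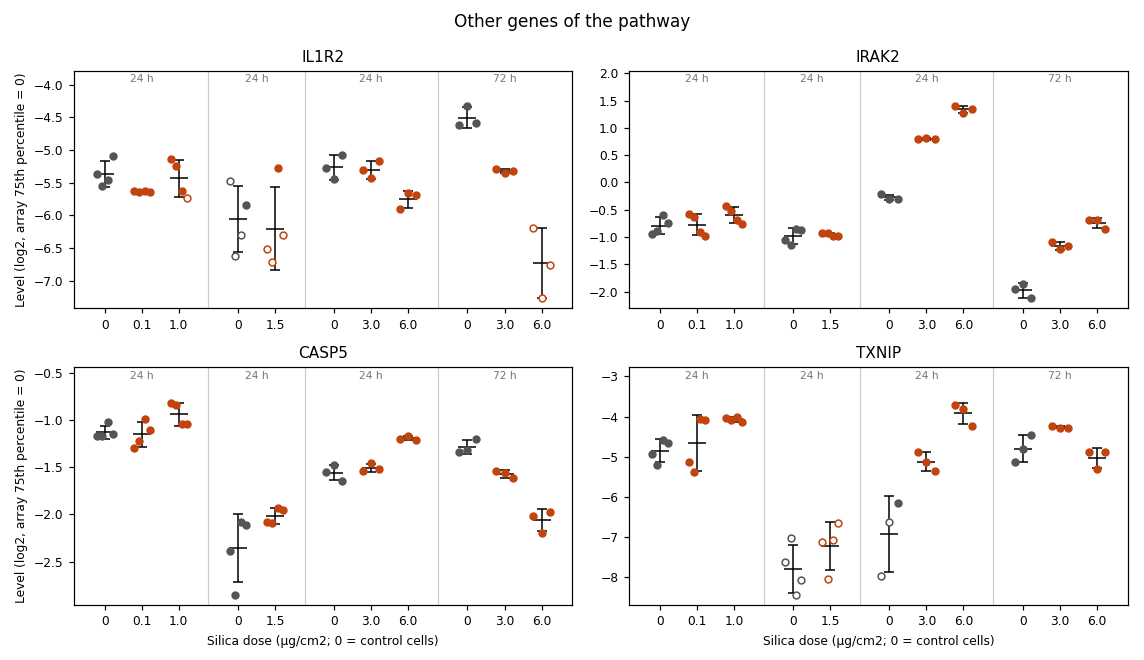
Level of 4 other genes of the pathway (log2, the 75th percentile of the array at 0) against silica dose in μg/cm2, with grey points for control cells, orange points for exposed cells, 1 point per array, open points where the probe was not well above background, and bars for the mean ± SD. IRAK2 rises with dose at both times, CASP5 is above its controls at 6.0 μg/cm2 and 24 h (−1.22 to −1.17) and below them at 72 h (−2.20 to −1.98), and IL1R2 at 72 h falls from −4.61 to −4.33 in the control cells to −7.26 to −6.19 at 6.0 μg/cm2.

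The genes that ran most like the members were found over all 38 arrays among 12175 genes above background on each, with every level taken relative to the mean of its own controls. Pearson's r was highest for IL18 with CLIC4 (0.909) and CSGALNACT2 (0.909), for IL1R1 with HS6ST1 (0.921) and ERBB2 (0.92), for CASP4 with NMRK1 (0.921) and SRPX (0.912) and for PYCARD with NRSN2 (0.781) and RUSF1 (0.78). The arrays share sets, scan days and controls, so the values are a description and mix the likeness between groups with that within them.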

How the data were processed

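Total RNA of A549 cells was hybridised by the authors to single-dye (Cy3) oligonucleotide arrays, and the deposited scanner output was read with Agilent Feature Extraction, version 10.10.1.1 for the arrays at 0.1 and 1.0 μg/cm2 and their controls and 11.0.1.1 for the others. The deposited processed signal is an intensity from which that software had subtracted the background, with no normalization between arrays, and the deposited median spot and background intensities were used for normexp. The series matrix holds the deposited median spot intensities again, with no background correction and no normalization between arrays, and was used as an alternative after the same scaling. Control spots and non-uniform or outlier spots (0.612%) were left out, log2 levels were taken relative to the 75th percentile of their array, and spots of a probe were averaged. A probe was well above background where at least 0.5 of its spots were. No pseudocount was used, and the fold changes of probes near background depended on how the background was treated.

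Only the groups compared entered each limma fit (R 4.3.3, limma 3.58.1, two-sided), on probes that all arrays of 1 or more groups had above background, with Benjamini-Hochberg adjustment over all of them. The fold threshold of 1.5 was that of the methods. The fit was tested on simulated data. A gene with several probes is represented by its brightest, and all 10 members are reported. The members, the 42 pathway genes and the marker lists were chosen with earlier results of these data known. Labels number the replicates as biological, with 4 at 0.1, 1.0 and 1.5 μg/cm2 where the methods speak of triplicate cultures. In these groups replicates 1 and 2, and 3 and 4, deviated together (consensus correlation 0.872, 0.807 and 0.63), so their p-values may measure partly technical spread. Same-numbered replicates deviated together (every correlation above 0.1) only between 6.0 and 3.0 μg/cm2, at 24 h (0.362, 0.413 and 0.44) and 72 h (0.636, 0.207 and 0.305). Alternatives were quantile normalization, normexp, other filters on dim probes, the series matrix, the methods' unpaired test, blocks and leaving out single arrays. Promoter windows came from RefSeq (GRCh38.p14). Figures were drawn with matplotlib.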

Additional observations from a re-analysis of the deposited data

Results flagged for a closer look

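In groups of 4 arrays, 1 array lay far from the other 3 in 4 of 65 sets of a probe and a group, and chance alone gives about 1 in 20. At 0.1 μg/cm2 and 24 h IL33 was highest at −5.90 on 1 array, with the others from −6.25 to −6.20. In the same group CASP4 was lowest at 1.08 on 1 array, with the others from 1.20 to 1.21. In the controls of 0.1 and 1.0 μg/cm2 the brighter IL1RN probe was highest at −4.91, beside −5.35 to −5.31, and the dimmer one at −8.60, beside −9.02 to −8.95, the latter below background on all 4 arrays.

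The response to 6.0 μg/cm2 differed between 72 h and 24 h, each time by the interaction term in limma. It differed for CASP4 by −1.03 on the log2 scale, for IL1R1 by −0.38 and for IL18 by −0.29. For IL1B the term was −1.81 for the signals as measured. IL1B was let into the test by its 72 h controls, of these groups the only one above background. The value of −1.81 therefore gives no size of its difference in response. The IL18 difference and that of IL1R1 by its brighter probe were below 1.5-fold. By its dimmer probe the IL1R1 difference was called, at −0.67. Among the other genes of the pathway the response differed for TXNIP by −3.23, with 1 of 3 control arrays at 24 h above background. It differed for IL1R2 by −1.74, with the exposed cells at 72 h below background, for CASP5 by −1.14, for CARD8 by 0.64 and for IL18BP by 0.60. With normexp IL1B and IL1R2 did not pass (adjusted p = 0.125 and 0.138), the latter at −0.80, and IL18BP changed sign. At 3.0 μg/cm2 IL1R2 differed by −0.78, or −0.40 with normexp. The exposed cells at 72 h had another scan day than their controls, so none of these differences in response can be told apart from scan day.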

How the results depend on the processing

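Counts here include IL1B, which at 72 h was tested through its controls. The number of members called was 0 in every alternative at 0.1, 1.0 and 1.5 μg/cm2 and between the doses at 24 h. At 6.0 μg/cm2 and 72 h it was 2 to 4 in place of 3. CASP4 and IL1R1 kept their calls there in all 17 alternatives, none of which could separate exposure from scan day. Without the fold threshold the counts were 1 and 3 at 24 h (3.0 and 6.0 μg/cm2), 3 at 3.0 μg/cm2 and 72 h, 2 between the doses at 72 h, 4 between the control times and 4 for the response at 6.0 μg/cm2. Without a filter on dim probes 1 member was called at 6.0 μg/cm2 and 24 h, CASP1, which was below background in both groups. At 3.0 μg/cm2 and 72 h the count of 1 became 0 with normexp, with the replicate block, with the filter in both groups, with the methods' unpaired test and with the rule of over 5 of 10 spots, and 2 in the series matrix or by any probe of a gene. With normexp it was 1 between the control times and 1 for the response at 6.0 μg/cm2, and the rule of over 5 of 10 spots, chosen after seeing the data, also gave 1 and 1. Quantile normalization gave 1 for the response at 3.0 μg/cm2.

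Leaving out each array in turn gave 0 to 2 at 3.0 μg/cm2 and 72 h (2 without the exposed replicate 1 that stood apart), 0 to 1 between the doses at 72 h (1 without replicate 3 of either dose) and 0 to 1 for the response at 3.0 μg/cm2 (1 without exposed replicate 1 at 72 h). The replicate block changed no other count of members. The sign turned for IL1F10 at 3.0 μg/cm2 and 72 h in the series matrix (−0.0717), for IL18RAP at 6.0 μg/cm2 and 72 h with normexp (−0.063) and in the series matrix (−0.35), and for the IL18BP response at 6.0 μg/cm2 with normexp (−0.20). The causes were not tested. Slide as a random block could not be fitted at 3.0 μg/cm2 and 72 h. IL1B, IL33, CASP1, IL1A and NLRP3 lay near background, where the arrays give bounds or no test.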
